A study of Mus musculus with 4 samples.

Results

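*Spp1*, *Anxa3*, *Ifitm3*, *Hopx*, *Sesn3* and *S100a6* are 6 genes whose expression differed in the same direction at embryonic day 11 (E11) and embryonic day 14 (E14) between neural progenitors with a conditional knockout of *Stat3* (*Stat3* cKO) and control (CTL) progenitors. They were selected on that difference. Each averaged at least 5 FPKM across all 4 libraries and differed at least 1.5-fold between the genotypes at both stages, with *Spp1*, *Anxa3*, *Ifitm3* and *Hopx* lower and *Sesn3* and *S100a6* higher in *Stat3* cKO. FPKM counts the fragments of a gene per kilobase of its transcript and relative to all fragments mapped, so it is corrected for length and can be compared between genes. The 6 genes come from 21091 entries, of which 9215 reached the mean of 5 FPKM and 9191 also had a value above 0 in every library. Of those 9191, 32 (0.348%) met the rule in the lower direction and 11 (0.120%) in the higher direction, and a further 51 passed 1.5-fold in opposite directions at the 2 stages. With each library scaled to the same sum, as in TPM, the counts were 24 lower and 34 higher. The 6 genes are thus part of a set of 43, and their genotype ratios are given as a description and not as a test.

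RNA-seq had been performed on neural progenitors from C57BL/6 mouse embryos, with 1 library for each of 4 groups, CTL and *Stat3* cKO at either stage. The dissociated progenitors of every group grew in suspension for 3 days with EGF and FGF, so each library is a culture that started at the named stage. The number of embryos behind a library is not given in the sources used here. *Stat3* cKO embryos carry floxed *Stat3*, from which Cre removes the part coding for the SH2 domain, and rat Nestin regulatory sequence directs Cre to neural progenitors. The study states that the deletion is reached by E14, so how far it had gone in the E11 culture is not known here. The control is labelled WT. The study's RNA-seq methods also call it wild-type, whereas its animal methods name Nestin-cre embryos with 1 floxed copy of *Stat3*, so an effect of Cre and an effect of *Stat3* loss cannot be told apart here. With 1 library in a group the spread between replicates is unknown, and differences were not tested. These are bulk cultures, in which fewer cells of a type and less RNA per cell cannot be told apart.

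STAT3 is a transcription factor that cytokine and growth factor receptors activate by phosphorylation, after which it enters the nucleus and binds DNA as a dimer. In the developing brain it is best known downstream of the gp130 cytokine receptors, as a factor of progenitor maintenance and of astrocyte gene expression. The 6 genes have separate roles. *Spp1* encodes osteopontin, a secreted phosphoprotein that binds integrins and CD44. *Ifitm3* encodes an interferon-induced membrane protein that hinders the entry of enveloped viruses. *Anxa3* and *S100a6* encode calcium-binding proteins of the annexin and S100 families. *Hopx* encodes a small homeodomain protein that does not itself bind DNA and that marks outer radial glia, and *Sesn3* encodes a sestrin, a stress-responsive regulator that restrains the growth kinase complex mTORC1.

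The sequence ahead of the start sites was examined because a STAT dimer binds palindromes of the form TTCNNNGAA. RefSeq windows on GRCm38.p6, each running from 250 bases before to 50 bases after an annotated start site, were found for 5 of the 6 genes (7 windows), and *Anxa3* had no entry. TTCNNNGAA, searched on both strands, occurred in 1 of the 7 windows and in 8.30% of all 32851 windows. That window belongs to *Ifitm3*, and the match lies after the start site, from base 14 to base 22, where the start site is base 1 and the base ahead of it is base -1. The stretch that holds it, on the minus strand at chr7:141010711-141010740, is shown because it is the only STAT-type match among the genes, with the match in capitals:
Ifitm3: aaaggaaacTTCTGAGAAaccgaaactgcc
The same palindrome with a spacer of 4 bases, also bound by STAT factors, was in none of the 7 windows and in 6.95% of all windows. TGTTTAC, the core that FoxO and other forkhead factors bind, was also in none of them and in 3.65% of all windows. No match says only that these letters are not in these windows.

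The *Ifitm3* stretch also holds GAAACCGAAA, from base 20 to base 29, which overlaps the STAT-type match by 3 bases, and GAAAAGGAAA begins just ahead of the stretch, at base 3. Both fit the core of the interferon-stimulated response element, a pair of GAAA repeats 2 bases apart, which 3.44% of all windows held. Among the other genes *Spp1* had a match, read on the opposite strand, from base -157 to base -148. The 250 bases ahead of this *Spp1* start site, on the plus strand at chr5:104434861-104435110, are shown for that match, a TATAA at base -211 and a CCAAT read on the opposite strand as ATTGG at base -46, all in capitals:
Spp1: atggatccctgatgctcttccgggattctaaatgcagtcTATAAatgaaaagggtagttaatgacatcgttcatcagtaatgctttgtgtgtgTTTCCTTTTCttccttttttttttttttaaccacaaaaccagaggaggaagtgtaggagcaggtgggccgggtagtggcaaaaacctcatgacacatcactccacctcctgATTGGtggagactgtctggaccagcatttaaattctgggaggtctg
TATAA occurred in 2 of the 7 windows, both of *Spp1*, against 24.9% of all windows. CCAAT, which the factor NF-Y binds, occurred in 5 of the 7 windows, of 4 genes, against 37.4% of all windows. *Sesn3* had 4 copies, all on the opposite strand. The 250 bases ahead of its start site, on the plus strand at chr9:14276051-14276300, show them in capitals:
Sesn3: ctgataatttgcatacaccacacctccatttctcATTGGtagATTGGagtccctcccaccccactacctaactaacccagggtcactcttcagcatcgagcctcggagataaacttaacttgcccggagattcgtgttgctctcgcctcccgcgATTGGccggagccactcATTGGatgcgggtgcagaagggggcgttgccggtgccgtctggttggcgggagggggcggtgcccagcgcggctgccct
The windows also differed in base composition. The *Sesn3* window had a GC content of 62.7% and 22 CpG, and the *Hopx* window with the higher GC content had 59.0% and 21 CpG. The *Spp1* window shown above had 45.3% and 3 CpG, against a median GC content of 52.7% over all windows. A match is a description of the letters and was not tested for binding.

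*Stat3* itself was at 7.41 FPKM in CTL against 6.74 in *Stat3* cKO at E11, and at 27.6 in CTL against 9.55 in *Stat3* cKO at E14. Relative to CTL its log2 ratio in *Stat3* cKO was thus -0.14 at E11 and -1.53 at E14. A transcript that lacks only the floxed exons still adds to the FPKM of the gene, so this value does not measure the deletion. At E14 all 4 lower genes had log2 ratios below that of *Stat3*, and at E11 the rule itself placed them below it.

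*Spp1*, the secreted ligand among them, had the lowest mean of the 6 genes, 5.24 FPKM, just over the minimum. It was at 3.32 FPKM (CTL) and 2.09 (*Stat3* cKO) at E11 and at 13.6 (CTL) and 1.99 (*Stat3* cKO) at E14. One library, E14 CTL, stood above the other 3. The level in *Stat3* cKO was 1.59-fold lower than in CTL at E11 and 6.82-fold lower at E14, which are log2 ratios of -0.67 and -2.77. At E14 it ranked 7 from the lowest of 9200 genes with a ratio, and at E11 it ranked 163 of 9198. Osteopontin has receptors among the integrins and in CD44, and of 10 such receptor genes 8 averaged at least 1 FPKM. In *Stat3* cKO none of these 8 exceeded CTL by 1.5-fold, as 2.18% of all genes did at E11 and 5.82% at E14. At E11 2 were lower, against 3.66% of the 12430 genes that averaged at least 1 FPKM and had a ratio, and at E14 4 were lower, against 7.67%. Their median log2 ratio was -0.01 at E11 and -0.57 at E14, beside 0.059 and -0.079 over all those genes. *Itgb1*, the integrin beta subunit with the highest level, was at 96.9 and 92.4 FPKM in E11 CTL and *Stat3* cKO and at 140 and 89.9 in their E14 counterparts. Of the 8, the receptors lower at both stages were *Cd44* and *Itga8*, named here after their values had been seen. *Cd44* was at 3.69 FPKM in CTL against 1.04 in *Stat3* cKO at E11, and at 11.0 in CTL against 4.23 in *Stat3* cKO at E14. Of the 5 genes of the SIBLING family of phosphoproteins to which osteopontin belongs, only *Spp1* reached a mean of 1 FPKM.

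*Anxa3* encodes an annexin, a protein that binds phospholipid membranes in the presence of calcium. It was at 7.09 FPKM (CTL) and 2.85 (*Stat3* cKO) at E11 and at 89.0 (CTL) and 24.0 (*Stat3* cKO) at E14. Both E14 libraries exceeded both E11 libraries, and within each stage *Stat3* cKO was the lower. The difference was 2.49-fold at E11 and 3.70-fold at E14, as log2 ratios -1.32 and -1.89. Its highest library was 31.2 times its lowest, the widest range among the 6 genes. Of 12 annexin genes 7 averaged at least 1 FPKM, and *Anxa3* was the only one at least 1.5-fold lower at both stages. The median log2 ratio of the 7 was 0.09 at E11 and -0.48 at E14. *Anxa2*, the annexin with the highest mean, was at 140 FPKM in CTL against 149 in *Stat3* cKO at E11, and at 44.9 in CTL against 21.2 in *Stat3* cKO at E14. Its log2 ratio was 0.09 at E11 and -1.08 at E14, so that it was lower in *Stat3* cKO at the later stage and not at the earlier one. Between stages *Anxa3* moved differently from most of its family. It was the 1 annexin of 7 with a ratio of E14 to E11 of 1.5 or more, a size that 30.3% of all genes with that mean reached in CTL and 21.6% in *Stat3* cKO. In each genotype 5 of the 7 annexins were lower at E14 by 1.5-fold or more, against 18.9% of all genes in CTL and 20.1% in *Stat3* cKO.

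*Ifitm3* had its highest level at the earlier stage. It was at 31.7 FPKM (CTL) and 17.7 (*Stat3* cKO) at E11 and at 13.1 (CTL) and 3.77 (*Stat3* cKO) at E14. It was 1.79-fold lower in *Stat3* cKO at E11 and 3.49-fold lower at E14, which are log2 ratios of -0.84 and -1.80. Of the IFITM family 3 genes averaged at least 1 FPKM. At E11 2 of the 3, *Ifitm3* and *Ifitm1*, were at least 1.5-fold lower, against 3.66% of all genes, and the median log2 ratio, -0.84, is that of *Ifitm3* itself, which the rule chose as lower. At E14 *Ifitm3* was lower, against 7.67% of all genes, and *Ifitm1*, named after its values had been seen and at 0.046 and 0.17 FPKM, was higher, against 5.82%, with a median of 0.01. *Ifitm2*, the member of the family with the highest level, was at 128 FPKM in CTL against 130 in *Stat3* cKO at E11, and at 14.1 in CTL against 14.1 in *Stat3* cKO at E14, and its log2 ratio was 0.03 and 0.01. *Ifitm1* was at 20.1 FPKM in E11 CTL and 10.9 in E11 *Stat3* cKO and at most 0.17 in the E14 libraries, so that it was close to *Ifitm3* in its E11 log2 ratio, -0.88. The 3 genes lie close together on chromosome 7 and have related sequences, so reads that fit more than one of them may have been divided among them by the authors' estimate. Of 30 interferon-stimulated genes 17, *Ifitm3* included, averaged at least 1 FPKM. At E11 3 of the 17 were lower, against 3.66% of all genes, and none was higher. At E14 6 were lower, against 7.67%, and 2 were higher, against 5.82%. The median log2 ratio of the list was -0.28 at E11 and 0.03 at E14, beside 0.059 and -0.079 over all genes. Among these 17, *Ifitm3* and *Bst2* were at least 1.5-fold lower at both stages. *Bst2*, which encodes tetherin, a membrane protein that holds budding viruses at the cell surface, was at 42.2 FPKM (CTL) and 18.2 (*Stat3* cKO) at E11 and at 9.92 (CTL) and 6.15 (*Stat3* cKO) at E14. *B2m*, the light chain of MHC class I and the highest gene of the list, had log2 ratios of -0.23 and 0.22.

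*Hopx* was at 13.3 FPKM in CTL against 8.68 in *Stat3* cKO at E11, and at 38.3 in CTL against 11.7 in *Stat3* cKO at E14. As with *Spp1*, E14 CTL was the highest library. *Hopx* was 1.53-fold lower in *Stat3* cKO at E11, close to the limit of the rule, and 3.28-fold lower at E14, as log2 ratios -0.61 and -1.71. Of 11 genes known from outer radial glia, 10 averaged at least 1 FPKM, and *Hopx* was the only one of them at least 1.5-fold lower at both stages. At E11 2 of the 10 were lower, against 3.66% of all genes, and at E14 2 were lower, against 7.67%. *Hopx* is counted at both stages, *Moxd1* at E11 (3.80 FPKM in CTL, 1.10 in *Stat3* cKO) and *Tnc* at E14 (89.0 and 57.4), and these names were chosen after their values had been seen. None was at least 1.5-fold higher, against 2.18% of all genes at E11 and 5.82% at E14. Over the 10 the median log2 ratio was -0.003 at E11 and -0.01 at E14. *Pea15a*, a regulator of ERK signalling with the highest level of the list, was at 60.9 and 67.9 FPKM in E11 CTL and *Stat3* cKO and at 179 and 249 in their E14 counterparts.

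*Sesn3* had the narrowest range of the 6 genes over the 4 libraries, 2.39-fold. It was at 19.1 FPKM (CTL) and 29.7 (*Stat3* cKO) at E11 and at 13.4 (CTL) and 32.1 (*Stat3* cKO) at E14. Both *Stat3* cKO libraries lay above both CTL libraries. The ratio was 1.56-fold at E11 and 2.39-fold at E14, which are log2 ratios of 0.64 and 1.26. Sestrins act upstream of mTORC1, and *Sesn3* is a known target of FoxO factors. Of the 3 sestrins and 4 FoxO factors, all 7 averaged at least 1 FPKM, and *Sesn3*, which the rule chose as higher, was the 1 gene at least 1.5-fold higher, against 2.18% of all genes at E11 and 5.82% at E14. Over the 7 the median log2 ratio was 0.08 at E11 and 0.41 at E14. *Sesn1*, named here after its values had been seen, was at 17.7 FPKM in CTL against 24.5 in *Stat3* cKO at E11, and at 26.1 in CTL against 35.7 in *Stat3* cKO at E14, with a log2 ratio of 0.46 at each stage. *Sesn2*, the sestrin with the highest mean, was at 70.3 FPKM (CTL) and 45.0 (*Stat3* cKO) at E11 and at 9.88 (CTL) and 11.9 (*Stat3* cKO) at E14. It was the 1 gene of the 7 at least 1.5-fold lower in *Stat3* cKO at E11, against 3.66% of all genes. At E14 none was, against 7.67%. The genes that carry the amino acid signal to mTORC1, a list without the sestrins, held none past 1.5-fold in either direction among 20 at either stage, where the shares of all genes were between 2.18% and 7.67%. Their median log2 ratios were 0.09 and 0.004. Of 16 FoxO target genes, 1 was higher and 3 were lower at E11, against 2.18% and 3.66% of all genes. At E14 4 were higher and none was lower, against 5.82% and 7.67%, and the medians were 0.05 and 0.38. *Sesn3*, which the rule chose as higher, is counted in this list and is the only one past 1.5-fold in the same direction at both stages. *Txnip*, an inhibitor of thioredoxin with the highest mean of the list but not the highest level at E14, went opposite ways. It went from 226 FPKM in CTL to 126 in *Stat3* cKO at E11 and from 25.1 in CTL to 55.2 in *Stat3* cKO at E14.

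*S100a6* encodes calcyclin, a small calcium-binding protein. It was at 82.1 FPKM in CTL against 174 in *Stat3* cKO at E11, and at 8.07 in CTL against 16.9 in *Stat3* cKO at E14. Both E11 libraries lay above both E14 libraries, and within each stage *Stat3* cKO was the higher. The ratio was nearly the same at both stages, 2.12-fold at E11 and 2.09-fold at E14, as log2 ratios 1.09 and 1.06. Of 16 S100 genes 8 averaged at least 1 FPKM, and 4 of these were at least 1.5-fold higher at E11, against 2.18% of all genes, and 3 at E14, against 5.82%. Both counts include *S100a6*, which the rule chose as higher. It was the only one of the 8 at least 1.5-fold higher at both stages, although the *Stat3* cKO library was the higher one for 7 of them at each stage, and the median log2 ratios were 0.58 and 0.39. *S100a10*, the S100 protein with the highest mean and the partner of annexin A2, was at 128 FPKM (CTL) and 153 (*Stat3* cKO) at E11 and at 85.6 (CTL) and 56.5 (*Stat3* cKO) at E14. It was the 1 gene of the 8 at least 1.5-fold lower at E14, against 7.67% of all genes, and none was at E11, against 3.66%. *Cacybp*, which encodes the calcyclin-binding protein and is named here after its values had been seen, had log2 ratios of 0.15 and -0.65. Over 6 known binding partners of the S100, annexin and Hopx proteins the median log2 ratio was 0.12 at E11 and -0.50 at E14, and *Hdac2*, the one with the highest level, had 0.06 and -0.39.

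**Figure D1:**
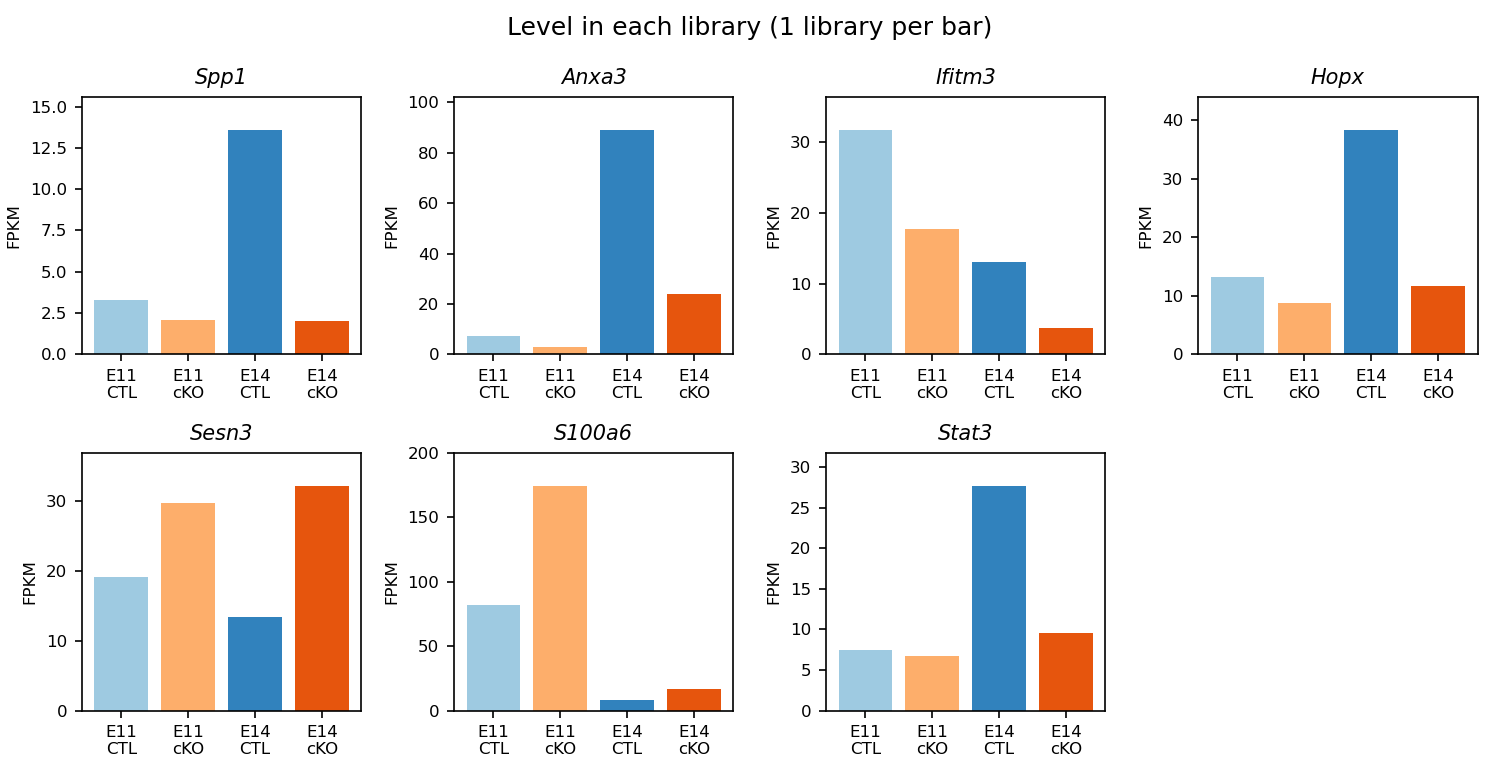
FPKM (vertical axes, each from 0 and with its own scale) of the 6 genes and of *Stat3* in the 4 libraries, with 1 bar for each library and no error bars because each group had 1 library. *Spp1* and *Hopx* have 1 tall bar, E14 CTL (13.6 and 38.3 FPKM), whereas both *Stat3* cKO bars of *Sesn3* (29.7 and 32.1 FPKM) stand above both CTL bars.

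The place of these genes at the limit of the rule differed. By the smaller of the genotype ratios at the 2 stages, *Anxa3* ranked 2 among the 32 lower genes, *Ifitm3* 11, *Spp1* 23 and *Hopx* 30. Among the 11 higher genes *S100a6* ranked 1 and *Sesn3* 9. Just inside the limit on the lower side were *Stk40* at 1.51-fold and *Gas6* at 1.53-fold, and just outside were *Fcgrt* at 1.499-fold and *Chac1* at 1.49-fold. On the higher side *Sox3* at 1.53-fold and *Hes5* at 1.55-fold were just inside, and *Tal2* and *Snora33*, both at 1.49-fold, were just outside. At E14 the 4 lower genes ranked between 7 and 23 from the lowest of 9200 genes, and at E11 between 36 and 188 of 9198. Passing 1.5-fold was more common at E14, where 7.26% of the genes averaging at least 5 FPKM were lower and 3.66% higher, than at E11, where 2.20% were lower and 1.82% higher.

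**Figure D2:**
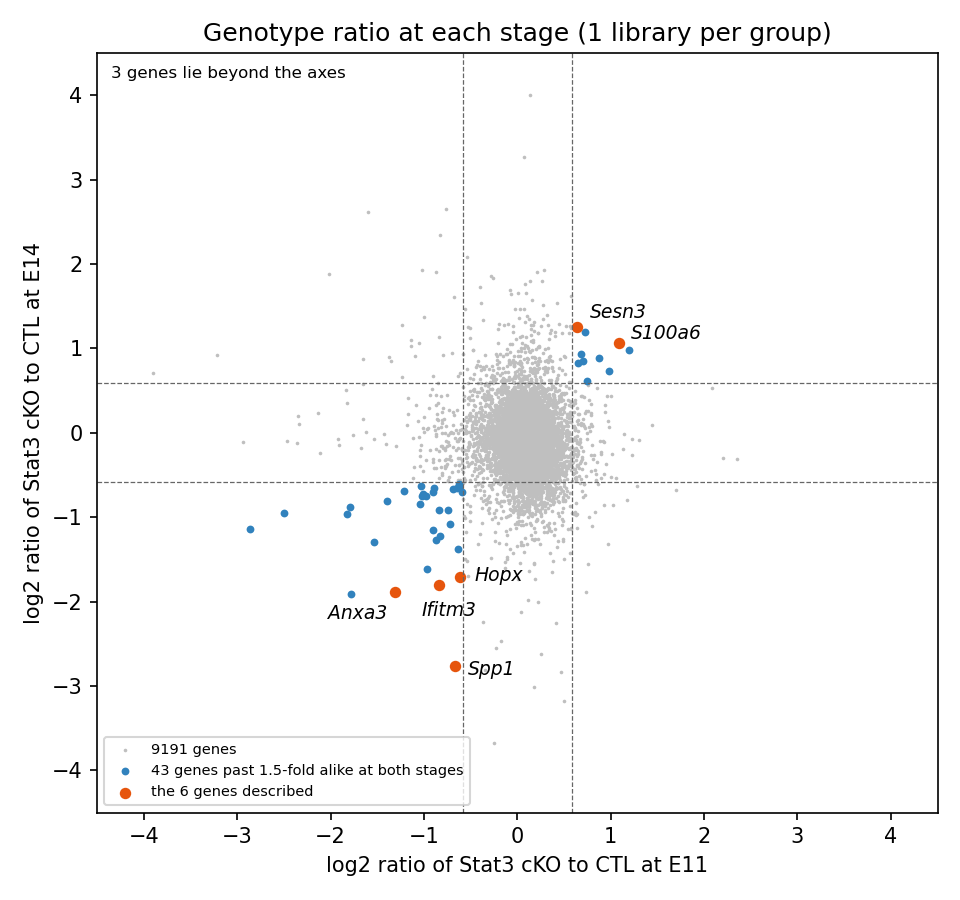
Log2 ratio between the genotypes (*Stat3* cKO over CTL) at E11 (horizontal axis) and at E14 (vertical axis) for 9191 genes averaging at least 5 FPKM, with dashed lines at 1.5-fold and 3 genes beyond the axes. The 43 genes that pass alike at both stages are in the lower left and upper right corners, where *Hopx*, *Spp1* and *Sesn3* sit close to the E11 line and *S100a6* (1.09, 1.06) sits away from both lines.

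How the 6 genes moved between stages was not itself a condition of the rule. In each gene, though, the difference between the stage ratios of the genotypes equals the difference between its genotype ratios. *Spp1* also reached the minimum mean of 5 FPKM only through E14 CTL, so its higher level there is not separate from the rule. In CTL, 3 of the 6 genes were higher at E14 by 1.5-fold or more, against 34.0% of all genes averaging at least 5 FPKM, and 2 were lower by as much, against 12.3%. *Anxa3* was 12.5-fold higher in CTL, *Spp1* 4.10-fold and *Hopx* 2.89-fold, while *S100a6* was 10.2-fold lower and *Ifitm3* 2.42-fold lower. In *Stat3* cKO, 1 gene was higher, against 21.7% of all genes, and 2 were lower, against 14.9%, a count that was 4 with each library scaled to the same sum. *Anxa3* was 8.43-fold higher there, *S100a6* 10.3-fold lower and *Ifitm3* 4.69-fold lower. *S100a6* thus had the same stage ratio in both genotypes to within 0.021 on the log2 scale. The log2 stage ratio of *Hopx* was 1.53 in CTL against 0.43 in *Stat3* cKO, and the latter became -0.43 when each library was scaled to the same sum. *Spp1* had 2.03 in CTL against -0.067 in *Stat3* cKO, and the latter was -0.92 under that scaling. *Sesn3* had -0.50 in CTL against 0.11 in *Stat3* cKO, and the latter was below 0 under upper-quartile scaling (-0.035) and under scaling to the same sum (-0.74). Its ratio in CTL was under 1.5-fold as deposited and past it under all 3 scalings (-0.72, -0.87 and -1.06), which made 3 genes lower in CTL in place of 2. Opposite signs in CTL and *Stat3* cKO, as *Spp1* and *Sesn3* had in the values as deposited, were seen in 18.1% of all 9191 genes.

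The position of most of these genes relative to the other genes of the same library differed between stages as well. Among the genes averaging at least 1 FPKM, *Anxa3* was at percentile 36.0 of the level in E11 CTL and 90.6 in E14 CTL, and at 15.3 and 70.0 in the *Stat3* cKO libraries. *S100a6* went from percentile 93.0 in E11 CTL to 39.1 in E14 CTL and from 96.7 to 60.3 in *Stat3* cKO. *Ifitm3* went from 80.6 to 51.9 in CTL and from 63.7 to 23.3 in *Stat3* cKO. *Spp1* went from 17.7 to 52.8 in CTL and from 10.6 to 12.9 in *Stat3* cKO. *Hopx* went from 55.4 to 78.7 in CTL and from 41.0 to 50.3 in *Stat3* cKO. *Sesn3* went from 67.2 to 52.6 in CTL and stayed near its place in *Stat3* cKO, at 78.1 and 77.1. Within a fixed set of genes such percentiles do not change with the scaling of a library.

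STAT3 target genes from general knowledge of the pathway, a list without the 6 genes, had 16 of 19 genes averaging at least 1 FPKM. At neither stage did any of the 16 exceed CTL by 1.5-fold in *Stat3* cKO, 2 were lower at E11, against 3.66% of all genes, and 8 at E14, against 7.67%. The median log2 ratio was -0.13 at E11 and -0.63 at E14. *Cebpb*, a basic leucine zipper factor of cytokine responses, was at 17.1 FPKM in CTL against 3.02 in *Stat3* cKO at E11, and at 6.26 in CTL against 3.25 in *Stat3* cKO at E14. It and *Icam1*, an adhesion molecule at a mean of 1.14 FPKM named here after its values had been seen, were the genes among these 16 lower at both stages. The 3 genes below that mean are named after their values had been seen. *Gfap*, at most 0.90 FPKM, and *Osmr*, at most 0.19 FPKM, were at least 1.5-fold lower at both stages. At E14 *Osmr* was at only 0.032 FPKM in CTL and 0.0084 in *Stat3* cKO. *Bcl3* had a log2 ratio of -0.52 at E11 and 1.59 at E14. *Vim*, the intermediate filament vimentin and the highest gene of the list, had log2 ratios of 0.07 and -0.31.

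**Figure D3:**
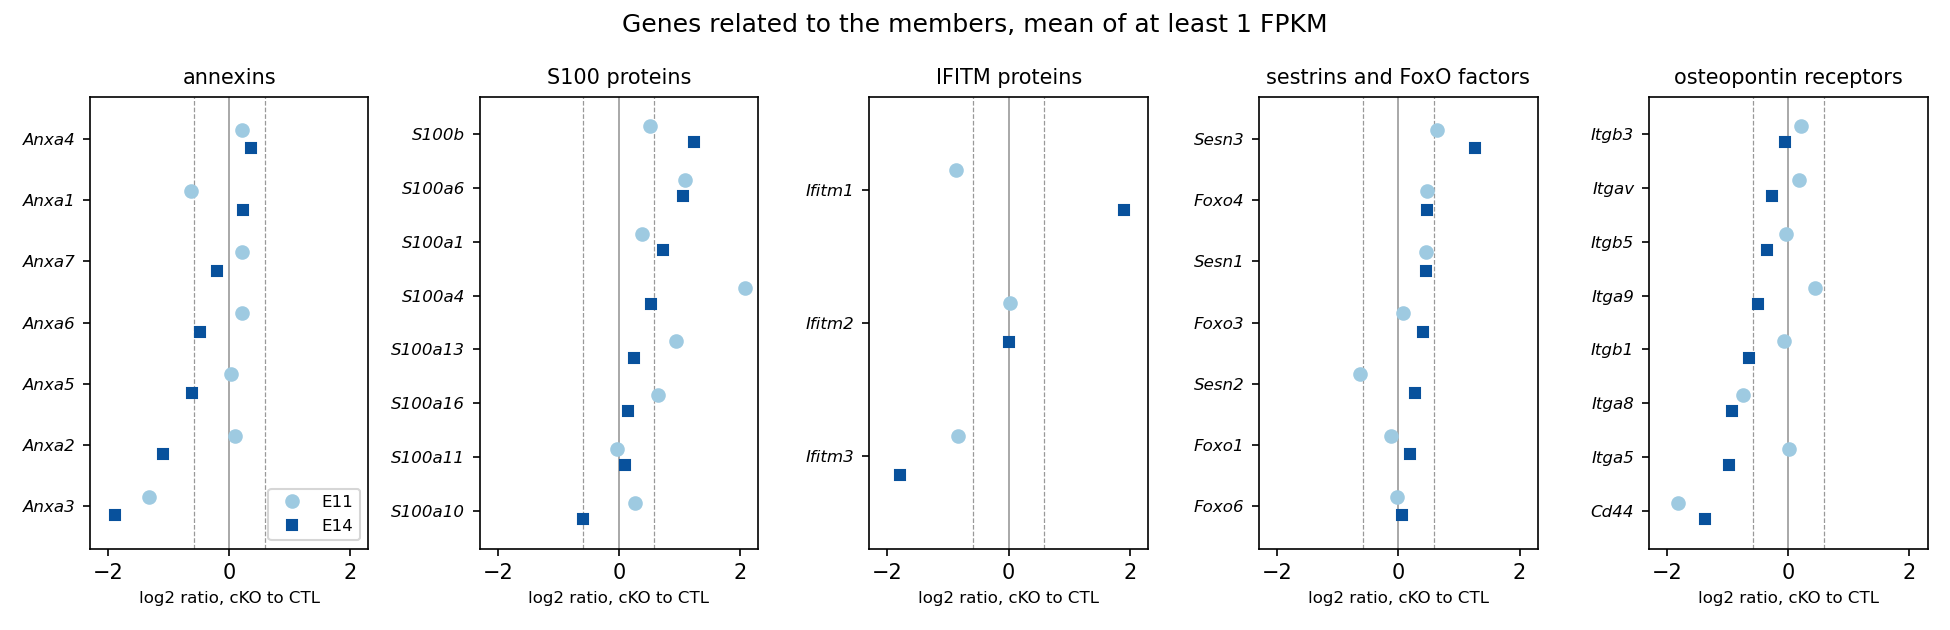
Log2 ratio of *Stat3* cKO to CTL (horizontal axes) at E11 (circles) and E14 (squares) for the genes averaging at least 1 FPKM in the annexin, S100, IFITM, sestrin and FoxO, and osteopontin receptor lists, with dashed lines at 1.5-fold in either direction. Within their families *Anxa3*, *Ifitm3*, *S100a6* and *Sesn3* are the genes with both points past the same line, and among the receptors *Cd44* and *Itga8* are.

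Of the 4 lower genes, 3 are listed on chromosome 5: *Hopx* at chr5:77516010-77544148, *Anxa3* at chr5:97222403-97274987 and *Spp1* at chr5:104864129-104870072. These positions are given as in the deposited files, which do not name their build. Chromosome 5 held 4 of the 32 lower genes (12.5%) and 6.21% of the 9215 genes averaging at least 5 FPKM. It was not the chromosome with the most, since chromosome 8, which holds none of the 6 genes, had 5 of the 32 (15.6%) and 5.53% of the 9215. The 3 genes are not adjacent. *Hopx* and *Anxa3* are 19.7 megabases apart. Between them lie 38 genes averaging at least 1 FPKM, whose median log2 ratio was 0.04 at E11 and -0.12 at E14. *Anxa3* and *Spp1* are 7.59 megabases apart with 30 genes averaging at least 1 FPKM between them, with medians of -0.098 and -0.25. The other genes are *Ifitm3* at chr7:148195488-148196643, *Sesn3* at chr9:14080744-14130578 and *S100a6* at chr3:90416815-90418336.

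None of the 12 nearest genes averaging at least 1 FPKM, 1 on each side of each gene, was past 1.5-fold in the direction of its neighbour at both stages. Among all 12449 entries of that mean, 84 were lower and 35 higher at both stages, so a count of none among 12 does not set these neighbours apart. Next to *Spp1*, *Pkd2*, which encodes the channel polycystin 2 and lies 18.4 kb away, had log2 ratios of 0.20 and -0.10, and *Sparcl1*, a matrix glycoprotein gene 321 kb away on the other side, had -1.05 and -0.20. The neighbours of *Hopx*, *Srp72* and *Rest*, ranged from -0.22 to 0.15. Beside *Anxa3*, the matrix protein gene *Fras1*, 8.66 kb away, had -0.38 and -0.58. *S100a4*, 6.85 kb from *S100a6* in the cluster of S100 genes, was at 3.94 FPKM (CTL) and 16.7 (*Stat3* cKO) at E11 and at 2.89 (CTL) and 4.16 (*Stat3* cKO) at E14. Its log2 ratio was thus 2.08 at E11, larger than that of *S100a6*, and 0.53 at E14, under 1.5-fold. *Ifitm1*, 39.8 kb from *Ifitm3*, had -0.88 at E11 and 1.91 at E14, where it was at only 0.046 and 0.17 FPKM. *Endod1*, 27.9 kb from *Sesn3*, had 0.16 and 0.26, and the neighbours not named here ranged from -0.31 to 0.16.

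The genes with the most similar levels over the 4 libraries were taken by the smallest distance between log2(FPKM + 0.1) values centred on their mean. For *Hopx* the nearest gene of all was *Stat3* (distance 0.42), followed by the small GTPase gene *Rhoq* and the kinase gene *Plk2*. For *Spp1* it was *Dusp6* (0.33), which encodes a phosphatase that inactivates ERK and which was at 14.6 FPKM in CTL against 12.4 in *Stat3* cKO at E11, and at 60.4 in CTL against 10.3 in *Stat3* cKO at E14. *Hopx* (0.71) and *Spry1* (0.86), an inhibitor of receptor tyrosine kinase signalling, came next. *Anxa3* had *Igfbp3* (0.45), an IGF-binding protein gene, with *Csgalnact1* and *Camk2b* after it. *Ifitm3* had *Mthfd2* (0.32), an enzyme gene of mitochondrial folate metabolism, with *Rhoj* and the cationic amino acid transporter gene *Slc7a1* after it. *Sesn3* was nearest to *Ppap2b* (0.27), *Celsr1* (0.34) and *Rfx5* (0.37), and *S100a6* to *Maf* (0.43), *Slc16a3* (0.48) and *Cdc42ep5* (0.53). Among the 6 genes themselves *Hopx* and *Spp1* were the closest pair (0.71) and *Anxa3* and *S100a6* the farthest (7.19). These distances rest on 4 values and describe likeness only.

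Markers of the labelled cell type were present. Summed over 10 radial glia and neural stem cell genes, the level was 1591 FPKM (CTL) and 1752 (*Stat3* cKO) at E11 and 7526 (CTL) and 8170 (*Stat3* cKO) at E14. *Fabp7* was the highest of them by its mean, although *Vim* was higher at E11. Markers of other cell types moved with the stage or the genotype. Over 10 mesenchyme and pericyte genes, all listed and 9 averaging at least 1 FPKM, the sum was 1418 in CTL and 1279 in *Stat3* cKO at E11, and 17.5 in CTL and 11.4 in *Stat3* cKO at E14, with the collagen gene *Col3a1* at 674, 586, 7.64 and 4.29. *Dcn*, a proteoglycan gene of the list named after its values had been seen, is one of the 32 lower genes, at 141, 78.8, 3.13 and 1.66 FPKM. *S100a6* and *Ifitm3* also had their higher levels at E11, and the part of these cells in their values was not tested. Microglia can also make osteopontin. Their 12 markers summed, with the libraries in the same order, to 15.0, 9.94, 1.73 and 1.57 FPKM, and *Tyrobp*, the highest of them by its mean, was at 3.84, 1.93, 0.17 and 0.16. In the E14 libraries, where *Spp1* was at 13.6 and 1.99 FPKM, none of the 12 exceeded 0.383 FPKM. Choroid plexus genes summed to 6.68, 4.80, 121 and 84.6 FPKM over 6 genes, of which *Ttr* made up 118 (CTL) and 82.2 (*Stat3* cKO) at E14. Astrocyte markers summed to 194, 230, 148 and 243 FPKM, with *Gja1* the highest by its mean but *Aldh1l1* the highest at E14. Oligodendrocyte precursor markers summed to 67.4, 87.8, 560 and 532, with *Olig1* the highest by its mean but *Pdgfra* the highest at E11. Neuron markers, led by *Tubb3*, summed to 747, 777, 1087 and 927. Endothelial markers, led by *Egfl7*, summed to between 6.56 and 14.2 FPKM. Neural crest markers, with *Ets1* the highest by its mean, summed to 18.4, 19.6, 28.7 and 48.5. Erythroid markers summed to 4.84, 0.87, 0.24 and 0.32 and so were lower in *Stat3* cKO at E11. The globin gene *Hbb-y*, outside that list and one of the 32 lower genes, was at 22.4, 3.07, 1.87 and 0.85 FPKM. *Hbb-y* is named here after its values had been seen. How much of any difference in the 6 genes goes with these cell types was not tested. Male-specific transcripts separated the E14 libraries as the genotype did, since 4 of them summed to 0 in both E11 libraries and to 0.26 FPKM in CTL and 93.7 in *Stat3* cKO at E14. At E14 the sex of the embryos and the genotype therefore cannot be told apart.

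The values as deposited summed to between 806587 and 1461770 FPKM in a library, and from 330 to 1589 entries were listed at 0. The number of fragments in each library is unknown, and no counting error can be given. Scaling mattered most where a gene was near the limit. With all libraries scaled to the same sum the median log2 ratio of all genes went from 0.059 to 0.29 at E11 and from -0.079 to -0.15 at E14, and the E11 log2 ratio went from -0.67 to -0.43 in *Spp1* and from -0.61 to -0.38 in *Hopx*, both under 1.5-fold. With the all-gene median set to 0, *Sesn3* at E11 went from 0.64 to 0.58, just under 1.5-fold. *Anxa3*, *Ifitm3* and *S100a6* passed 1.5-fold at both stages under each of the 5 alternatives of pseudocount and scaling.

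**Figure D4:**
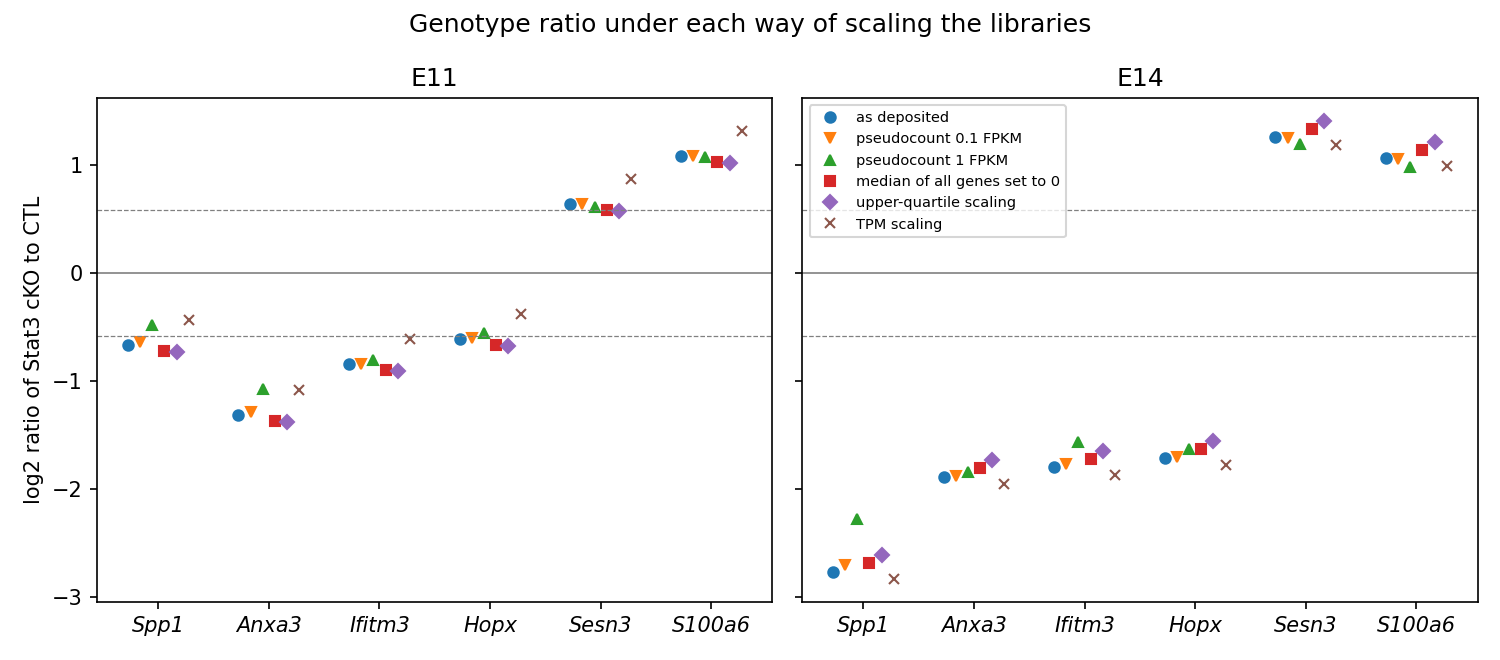
Log2 ratio of *Stat3* cKO to CTL (vertical axis) of the 6 genes at E11 (left) and E14 (right), as deposited, with pseudocounts of 0.1 and 1 FPKM and under 3 scalings, with dashed lines at 1.5-fold. Each gene keeps its side of 0 under all settings, the E14 values stay beyond the lines, and *Spp1*, *Hopx* and *Sesn3* cross the line at E11 under some.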

How the data were processed

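The 4 libraries of neural progenitors (E11 and E14, CTL and *Stat3* cKO) were made from total RNA and sequenced on an Illumina HiSeq instrument. After a FastQC check the authors ran TopHat and Cufflinks and deposited 1 FPKM value per gene and library. The versions of these tools are not given in the sources used here. The submitters' processing notes name Bowtie 0.12.2 and the builds mm8 and mm9 without a role. Only 4.40% of 19404 shared symbols lay within 1000 bases of their GRCm38 position, so listed and RefSeq coordinates were never combined.

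From these values, ratios without a pseudocount, counts past 1.5-fold, list medians and distances were computed with Python 3.11.15, numpy 2.4.6 and pandas 2.3.3, and figures were drawn with matplotlib 3.10.9. A gene at 0 in a library had no ratio. Counts behind the FPKM values, and so their precision, are unknown. The steps were tested on simulated data with 2-fold changes in well-expressed genes, which did not cover genes near 1.5-fold. The genes and the 23 gene lists were chosen with earlier results of these data known. Named are the 6 genes and *Stat3*, genes of the family and pathway lists averaging at least 5 FPKM that were past 1.5-fold alike at both stages, the highest gene of each family and cell type list, chromosomal neighbours, the 3 most similar genes and the genes at the limit. Other names, the highest gene of each pathway list included, were chosen after their values were seen. The interferon-stimulated response element core, CCAAT and TATAA were added after the sequences had been seen. Alternatives were pseudocounts of 0.1 and 1 FPKM, centring on the median of all genes, upper-quartile and TPM scaling, other minimum means and a fold of 2. No test was run, since each group had 1 library.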

Additional observations from a re-analysis of the deposited data

Results flagged for a closer look

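In *Spp1* and *Sesn3* the ratio between stages had opposite signs in the genotypes in the values as deposited. The log2 ratio of E14 to E11 for *Spp1* was 2.03 in the CTL libraries and -0.067 in the *Stat3* cKO libraries. Since *Spp1* reached the minimum mean only through E14 CTL, its ratio in CTL is not separate from the rule. *Sesn3* had -0.50 in CTL against 0.11 in *Stat3* cKO, and the latter took the sign of CTL under upper-quartile (-0.035) and TPM (-0.74) scaling. With 1 library per group the difference was not tested, and 18.1% of the 9191 genes had opposite signs.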

How the results depend on the processing

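No paired analysis was possible because each group had 1 library and the labels give no replicate numbers, and no library could be left out for the same reason. Over the 6 genes, 54 of 60 genotype ratios recomputed under an alternative of pseudocount or scaling kept their direction and their side of 1.5-fold, and 6 kept their direction only. All 6 of these were E11 ratios. *Spp1* was at -0.48 and *Hopx* at -0.56 with a pseudocount of 1 FPKM, and at -0.43 and -0.38 under TPM scaling. *Sesn3* was at 0.58 with the all-gene median set to 0 and 0.57 under upper-quartile scaling. The number of the 6 genes past 1.5-fold at both stages was 4, 5 or 6 under these alternatives, and 2 passed 2-fold. The 32 genes lower at both stages became 84 with a minimum mean of 1 FPKM, 482 with no minimum and 4 at 2-fold. The 11 higher genes became 35, 211 and 1 under the same settings, and under TPM scaling 24 genes were lower and 34 higher. Of the 6 genes, 2 were lower at E14 than at E11 in *Stat3* cKO as deposited and 4 under TPM scaling, where *Spp1* was at -0.92 and *Sesn3* at -0.74. That scaling moved the median ratio of E14 to E11 of all genes from 0.058 to -0.80 in *Stat3* cKO. The median of the STAT3 target genes at E14 was -0.48 under upper-quartile scaling, and 36 of 43 list medians kept their direction and side. The cause of these changes was not tested. FPKM values without counts and without replicates give no error for any ratio.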
